A study of Homo sapiens with 9 samples.

Results

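The genes described here are 10 genes of apolipoproteins and lipoprotein assembly: APOA1, APOA4, APOB, APOC3, APOE, APOM, MTTP, DGAT1, DGAT2 and SAR1B. They were taken by symbol from a count table of 60591 gene symbols, and all 10 were found. The cells were uCaco-2, the undifferentiated, proliferating form of Caco-2, a single human colon adenocarcinoma line. They were kept for 24 h with 300 μM cobalt (II) chloride (CoCl2), with 5 μM of an oxyquinoline derivative (OD), or with fresh medium and neither compound (control), and all 3 groups carried 0.5% DMSO. Each group had 3 biological replicates, measured by poly(A) mRNA sequencing. Both compounds were used to imitate hypoxia chemically, by hindering the breakdown of hypoxia-inducible factors, and the question of the comparisons is how each one changed gene expression against control cells and whether the compounds differed.

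Triglyceride-rich lipoproteins are put together in the endoplasmic reticulum of enterocytes and hepatocytes. APOB is the large structural protein of the particle, MTTP (microsomal triglyceride transfer protein) loads lipid onto it as it is made, and DGAT1 and DGAT2 catalyse the last step of triglyceride synthesis. SAR1B is the small GTPase that starts the coat of COPII vesicles, which carry the particles to the Golgi. APOA1, APOA4, APOC3, APOE and APOM are exchangeable or membrane-anchored apolipoproteins that travel on chylomicrons, very-low-density or high-density lipoproteins. Caco-2 cells are a common model of this pathway, most often after differentiation, whereas the cells measured here were not differentiated.

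Total counts per library ranged from 15998136 to 24209427. The libraries were scaled by TMM (trimmed mean of M values) factors, which were 1.11 to 1.12 in control, 0.770 to 0.795 with CoCl2 and 1.14 to 1.15 with OD, and levels are given as CPM, the count of a gene divided by the scaled library total and brought to a common total. Of the cell type markers, KRT8, KRT18, EPCAM and CDH1 were abundant and 9 of 10 intestinal epithelial markers were tested, while CDX1 had no count in any library. VIL1, the microvillus protein villin, fell from 613 CPM in control to 112 CPM with CoCl2, and KRT20 fell too, whereas the other 7 tested were higher at an adjusted p under 0.05 (list median 0.28 on the log2 scale). When libraries were scaled by their totals alone, EPCAM (-0.14), CDH1 (-0.22), KRT8 (-0.16), KRT18 (-0.24), KRT19 (-0.014) and CDX2 (-0.33) turned negative. The median of all genes then stood at -0.55. LGALS4 had 6 to 33 counts with CoCl2 and 5 to 9 in control, and its libraries overlapped in CPM. The summed level of the list was 10810 to 11339 CPM in control, 12909 to 13840 CPM with CoCl2 and 10143 to 10699 CPM with OD. Genes typical of hepatocytes were counted too (6 of 8 tested), with a summed level of 393 to 432 CPM in control, 473 to 520.1 CPM with CoCl2 and 360.0 to 383 CPM with OD. Leukocyte genes stayed at or under 0.479 CPM in sum, and MS4A1 was listed at 0. Fibroblast genes (2 of 4 tested) summed to 17.6 to 21.8 CPM in control, 10.6 to 12.1 CPM with CoCl2 and 26.6 to 28.5 CPM with OD, and the part of these changes in the results was not tested.

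With CoCl2 the particle protein APOB and both DGAT genes fell, and the vesicle GTPase SAR1B rose. APOB and DGAT2 fell 4.27-fold and 4.24-fold, DGAT1 fell 2.34-fold and SAR1B rose 2.17-fold, so that 4 of the 10 genes were called (adjusted p under 0.05 in edgeR's quasi-likelihood test, with a change of more than 1 on the log2 scale in either direction). Over all 15944 genes tested, 43.2% were called in this comparison, 19.9% higher and 23.4% lower, and 4 of 10 is near that share. At an adjusted p under 0.05 and any fold, 8 of the 10 passed, where 83.2% of all genes did. With OD only MTTP was called, as a rise, where 13.3% of all genes were called, 9.09% higher and 4.16% lower, and 8 of the 10 passed at any fold, where 65.6% of all genes did. Between CoCl2 and OD 4 of the 10 were called, SAR1B higher and APOA4, APOB and DGAT2 lower with CoCl2, where 41.3% of all genes were (17.5% higher and 23.8% lower), and 9 passed at any fold, where 83.5% of all genes did. The 3 comparisons use the same 9 libraries, and both treatments were set against the same control libraries. The libraries of the 2 groups did not overlap for 8 of the 10 genes with CoCl2 against control (83.4% of all genes), for 9 with OD against control (68.0%) and for 9 with CoCl2 against OD (83.8%). Taken over the 10 genes, the middle log2 fold change was -0.10 for CoCl2 against control and 0.20 for OD against control, beside -0.049 and -0.010 for all genes tested. For CoCl2 against OD it was -0.84, beside -0.054.

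**Figure D1:**
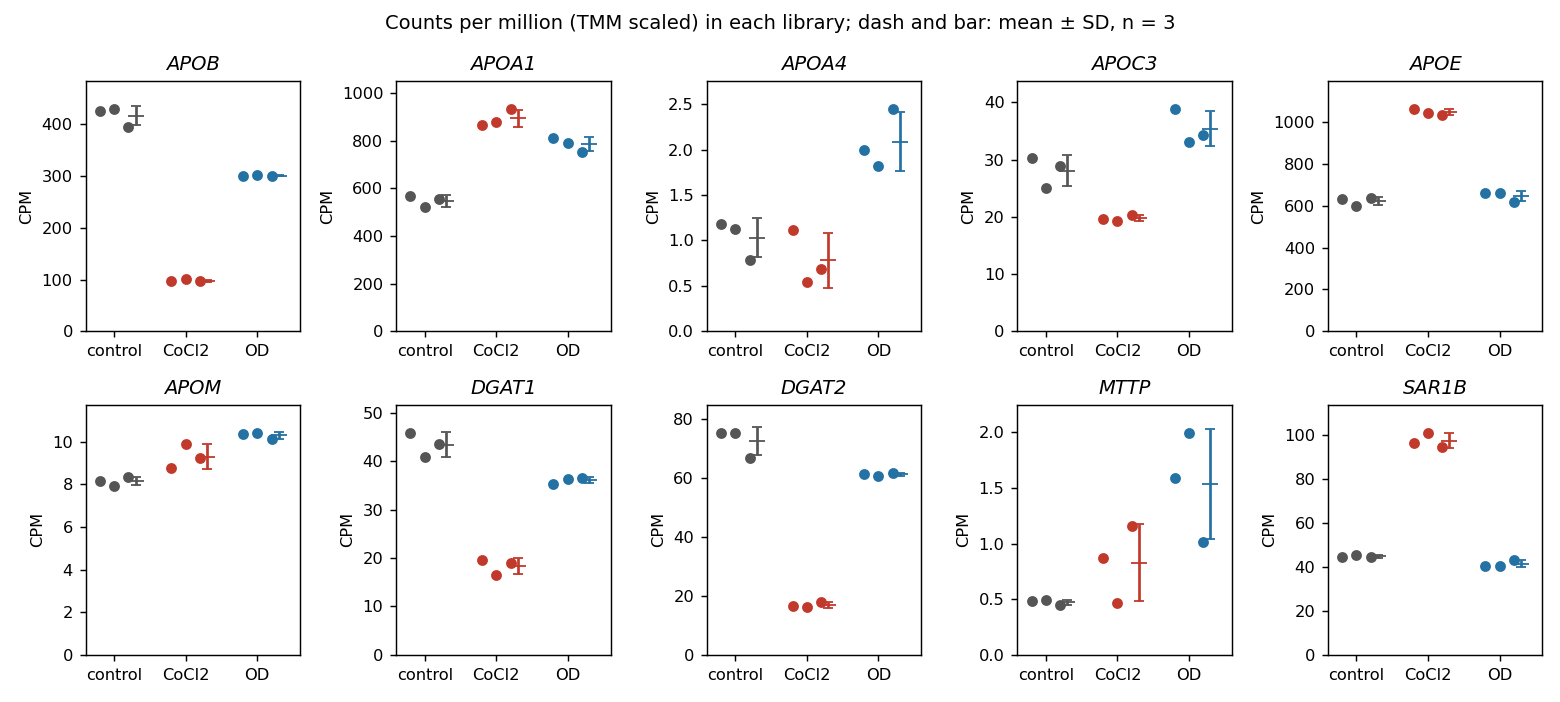
Level of each of the 10 genes in every library, in CPM after TMM scaling (vertical axis, from 0, with its own scale for each gene), for control, CoCl2 and OD. Points are libraries and bars are the mean and SD of 3. The CoCl2 points of APOB, DGAT1 and DGAT2 lie below all others, those of SAR1B above all others, and those of MTTP overlap both other groups.

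**Figure D2:**
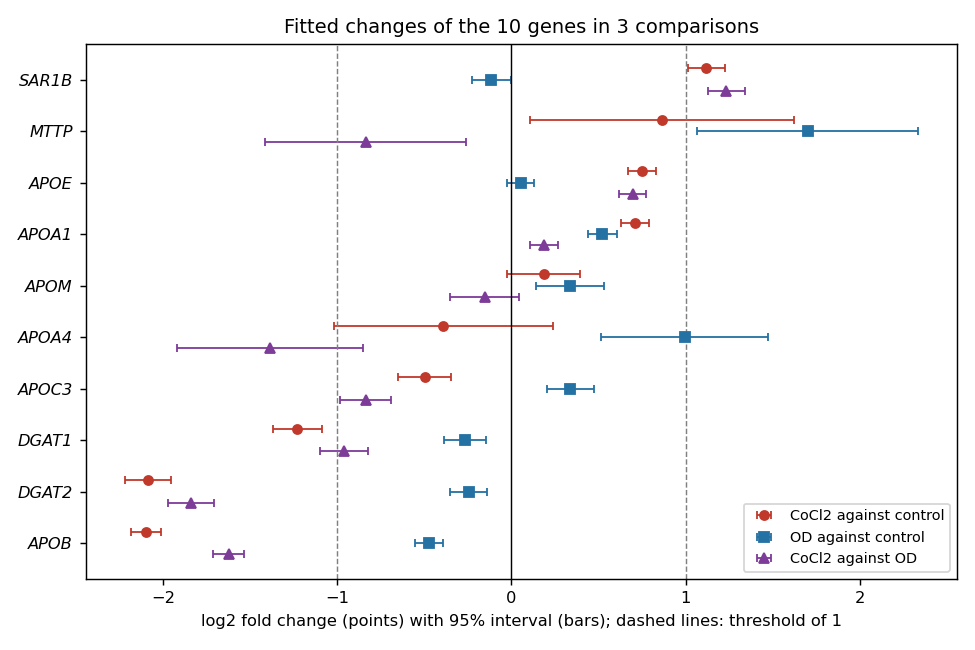
Log2 fold change of each gene in the 3 comparisons, with 95% confidence intervals from the edgeR fit, and dashed lines at the fold threshold of the calls. APOB and DGAT2 lie near -2.1 with CoCl2 against control, SAR1B is the only gene called higher there, and MTTP the only gene called with OD.

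APOB and DGAT2 had the lowest log2 fold changes of the 10 genes with CoCl2, and differed from each other by less than their errors. The level of APOB was 426, 430.2 and 395 CPM in the control libraries, 96.2, 100.1 and 96.8 CPM with CoCl2, and 300.0, 302 and 299.7 CPM with OD. All CoCl2 libraries lay far below all others, and the OD libraries lay between. The mean fell from 417 ± 19.0 CPM in control to 97.7 ± 2.09 CPM with CoCl2 (SD, n = 3 each), a log2 fold change of -2.10 ± 0.044 (SE; edgeR adjusted p = 4.07e-48), lower than that of all but 6.54% of genes tested. The OD libraries gave a log2 fold change of -0.47 ± 0.040 (edgeR adjusted p = 1.45e-16), under the fold threshold. Set directly against OD, CoCl2 gave a level 3.08-fold lower (edgeR adjusted p = 5.33e-42). These are levels of RNA in whole cultures, in which fewer cells of a type and less RNA per cell cannot be told apart.

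The gene of APOB lies on chromosome 2 (GRCh38 chr2:21001429-21044073, minus strand), and its main transcript of 14121 bases makes it the longest of the 10. Per kilobase of transcript it stood at 29.5 CPM per kb in control, close to DGAT2 and well below APOA1.

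DGAT2, an acyltransferase bound to the endoplasmic reticulum and lipid droplets, fell with CoCl2 as well. Its level was 75.4, 75.2 and 66.9 CPM in control, 16.6, 16.3 and 18.1 CPM with CoCl2, and 61.4, 60.6 and 61.6 CPM with OD. The CoCl2 libraries again stood apart, while OD and control differed by little without overlapping. The log2 fold change was -2.09 ± 0.065 with CoCl2 (edgeR adjusted p = 1.87e-38) and -0.25 ± 0.053 with OD (edgeR adjusted p = 4.37e-05). Against OD it was 3.58-fold lower with CoCl2 (edgeR adjusted p = 2.97e-35).

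DGAT1, the other enzyme of this step, had 45.9, 40.8 and 43.6 CPM in control, 19.7, 16.6 and 19.0 CPM with CoCl2, and 35.3, 36.3 and 36.5 CPM with OD. It fell with CoCl2 by 1.23 ± 0.069 on the log2 scale (edgeR adjusted p = 5.69e-25), and its log2 fold change with OD was -0.27 ± 0.060 (edgeR adjusted p = 9.36e-05). Against OD, CoCl2 gave -0.96 ± 0.070, just under the fold threshold, which 5 alternative settings passed and 13 did not. The genes lie apart, DGAT2 on chromosome 11 (chr11:75759512-75801535, plus strand) and DGAT1 on chromosome 8 (chr8:144314584-144326910, minus strand), where 10.9% of its exonic bases are shared with other annotated genes of the same strand.

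The ratio of DGAT2 to DGAT1 counts within a library, which does not depend on any scaling between libraries, was 1.54 to 1.84 in control, 0.845 to 0.986 with CoCl2 and 1.67 to 1.74 with OD. DGAT2 had more counts than DGAT1 in every control and OD library and fewer in every CoCl2 library.

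APOA1, the main protein of high-density lipoproteins, moved the other way from APOB. Its level was 568, 520.0 and 554 CPM in control, 869, 881 and 935 CPM with CoCl2, and 813, 789 and 754 CPM with OD. Every treated library lay above every control library. The log2 fold change was 0.71 ± 0.041 with CoCl2 (edgeR adjusted p = 1.18e-24) and 0.52 ± 0.041 with OD (edgeR adjusted p = 5.96e-18), both under the fold threshold. CoCl2 against OD gave 0.19 ± 0.040 (edgeR adjusted p = 2.70e-05), but this turned to -0.36 when libraries were scaled by their totals alone. The value for CoCl2 against control was then 0.20. That scaling moved the median of all genes from -0.049 to -0.55 with CoCl2 against control and to -0.60 against OD.

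APOE, a ligand for the uptake of lipoprotein remnants, was the other abundant apolipoprotein. It had 632, 600.3 and 638 CPM in control, 1063, 1042 and 1036 CPM with CoCl2, and 662, 660.1 and 618 CPM with OD. It was higher with CoCl2 by 0.75 ± 0.039 on the log2 scale (edgeR adjusted p = 1.45e-26), and against OD by 0.69 ± 0.039 (edgeR adjusted p = 5.24e-25), both under the fold threshold, whereas the OD and control libraries overlapped. Scaled by library size alone, these CoCl2 values were 0.24 and 0.15. The log2 fold change with OD was 0.053, with a 95% interval of -0.025 to 0.13 (edgeR adjusted p = 0.233).

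Against APOB, APOA1 and APOE had a larger share in every treated library. The APOA1 to APOB ratio of counts was 1.21 to 1.40 in control, 8.80 to 9.65 with CoCl2 and 2.52 to 2.71 with OD. The APOE to APOB ratio was 1.40 to 1.61, 10.4 to 11.1 and 2.06 to 2.21 in the same order. No groups overlapped in either ratio. The APOA1 to APOE ratio overlapped between control (0.866 to 0.899) and CoCl2 (0.817 to 0.902) and was higher with OD (1.20 to 1.23).

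APOC3, an inhibitor of lipoprotein lipase, differed from control in opposite directions with the 2 compounds. It had 30.3, 25.1 and 28.8 CPM in control, 19.6, 19.3 and 20.4 CPM with CoCl2, and 38.9, 33.0 and 34.3 CPM with OD. The 3 groups did not overlap, with CoCl2 lowest and OD highest. The log2 fold changes of -0.50 ± 0.077 with CoCl2 (edgeR adjusted p = 3.21e-08) and 0.34 ± 0.068 with OD (edgeR adjusted p = 1.43e-05) were under the fold threshold, and their difference was -0.84 ± 0.074 (edgeR adjusted p = 3.35e-16). The APOA1 to APOC3 ratio of counts was 18.7 to 20.8 in control, 44.3 to 45.8 with CoCl2 and 20.9 to 23.9 with OD.

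APOA4, a chylomicron apolipoprotein of the enterocyte, was near the floor of detection, with 22, 23 and 14 counts in control, 18, 7 and 13 with CoCl2, and 44, 41 and 46 with OD. All OD libraries lay above all others, and control and CoCl2 overlapped. OD gave a log2 fold change of 0.99 ± 0.24 (edgeR adjusted p = 0.000235), just under the fold threshold, where 10 alternative settings called it higher and 7 did not. CoCl2 gave -0.39 with a 95% interval of -1.02 to 0.24 (edgeR adjusted p = 0.241). Against OD, APOA4 was 2.61-fold lower with CoCl2 (edgeR adjusted p = 4.18e-06). Of its exonic bases 43.2% are shared with an annotated gene on the opposite strand, and whether strand was used in counting is not given in the sources used here.

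APOM, which carries sphingosine 1-phosphate on high-density lipoproteins, differed little between groups. It had 8.18, 7.94 and 8.36 CPM in control, 8.77, 9.91 and 9.23 CPM with CoCl2, and 10.4, 10.4 and 10.1 CPM with OD. The groups did not overlap, with control lowest and OD highest. Its log2 fold change was 0.34 ± 0.098 with OD (edgeR adjusted p = 0.00192) and 0.18 with CoCl2, with a 95% interval of -0.025 to 0.39 (edgeR adjusted p = 0.0967). The CoCl2 value turned to -0.32 with library size alone. BAG6, on the opposite strand, shares 11.0% of the exonic bases of APOM.

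Of the assembly genes, SAR1B rose with CoCl2. Its level was 44.4, 45.3 and 44.6 CPM in control, 96.6, 101 and 94.5 CPM with CoCl2, and 40.6, 40.4 and 43.3 CPM with OD. All CoCl2 libraries lay far above all others. The log2 fold change was 1.12 ± 0.053 against control (edgeR adjusted p = 5.48e-29) and 1.23 ± 0.053 against OD (edgeR adjusted p = 3.15e-31). OD against control gave -0.11, with a 95% interval of -0.23 to -0.0035 (edgeR adjusted p = 0.0646). With library size alone the CoCl2 values were 0.61 and 0.69, which ends both calls, while the median of all genes then stood at -0.55 and -0.60. SAR1A, the paralogue of SAR1B, rose too, from 223 CPM in control to 610.2 CPM with CoCl2 (log2 1.45 ± 0.042, edgeR adjusted p = 1.41e-40), and stood at 216 CPM with OD. Its log2 value was 0.95 with library size alone, which ends the call.

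MTTP was barely counted in control cells, with 9, 10 and 8 counts, against 14, 6 and 22 with CoCl2 and 35, 45 and 19 with OD. Every OD library lay above every control library, while CoCl2 overlapped both groups. OD raised the fitted log2 value by 1.70 ± 0.32 (edgeR adjusted p = 3.72e-06), a 3.25-fold rise from 0.474 ± 0.022 to 1.53 ± 0.495 CPM (SD, n = 3 each). At these counts MTTP lay close to the expression filter of 0.547 CPM in at least 3 libraries. The filter uses library totals without TMM factors, and on that scale 1 control, 2 CoCl2 and 3 OD libraries reached it. With CoCl2 the log2 fold change was 0.86 ± 0.38 (edgeR adjusted p = 0.0317), under the fold threshold and overlapping control. Between the compounds the difference was -0.84 ± 0.29 (edgeR adjusted p = 0.00679), again with overlap.

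Promoter sequence is shown for the 3 genes called or nearly called higher in one treatment and low or moderate otherwise, MTTP, SAR1B and APOA4, so that the sequence before the start can be read beside the values. RefSeq promoter entries matched 5 of the 10 genes (APOA4, APOE, APOM, MTTP and SAR1B, assembly GRCh38.p14). Each run gives the bases before a start, 5′ to 3′ on the gene's own strand, and capitals mark matches on either strand to GCGTG or ACGTG, the core of the hypoxia response element, or TATAAA, the TATA box.
APOA4 (chr11:116823305-116823554, minus strand): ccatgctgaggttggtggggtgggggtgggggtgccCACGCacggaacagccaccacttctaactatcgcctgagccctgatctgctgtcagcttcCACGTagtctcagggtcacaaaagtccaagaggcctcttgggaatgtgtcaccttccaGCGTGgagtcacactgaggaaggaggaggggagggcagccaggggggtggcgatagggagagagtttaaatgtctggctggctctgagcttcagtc
SAR1B (chr5:134632829-134633078, minus strand, before a RefSeq start 16.4 kb inside the annotated gene): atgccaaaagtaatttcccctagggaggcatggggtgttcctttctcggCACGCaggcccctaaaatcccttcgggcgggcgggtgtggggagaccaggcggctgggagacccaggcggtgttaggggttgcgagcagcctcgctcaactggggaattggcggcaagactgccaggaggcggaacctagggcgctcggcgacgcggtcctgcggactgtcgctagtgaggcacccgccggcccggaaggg
MTTP (chr4:99574574-99574808, plus strand, the second of its listed starts, 10.7 kb inside the annotated gene, without 15 exonic bases at its end): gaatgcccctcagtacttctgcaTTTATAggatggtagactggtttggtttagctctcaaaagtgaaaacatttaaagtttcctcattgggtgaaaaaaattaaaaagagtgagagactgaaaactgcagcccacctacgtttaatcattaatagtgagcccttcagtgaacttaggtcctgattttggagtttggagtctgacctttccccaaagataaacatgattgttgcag

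The window of APOA4 held 2 matches to GCGTG and 1 to ACGTG, that of SAR1B held 1 to GCGTG, and that of the second MTTP start held neither core. The TATAAA letters marked for MTTP lie on the opposite strand, at positions -227 to -222 from the start. The window of the first MTTP start, which lies beside TRMT10A and is not shown because it overlaps exons, held 1 match to GCGTG. Of 35116 RefSeq promoters, 32.2% held GCGTG and 18.5% held ACGTG in the 250 bases before the start, and 10.7% held TATAAA. The longer CAAAGTCCA and CAAAGGTCA, forms of the element that HNF4A binds, were in 0.325% and 0.339% of promoters and in none of the 3 runs shown. Both strands were searched, and GCGTG and ACGTG share their last 4 letters. All matches named here are of letters only. The windows of APOE and the window of APOM, which are not shown, each held 0 matches to the letters searched. Those of APOE lie before starts 0.005, 0.23 and 0.61 kb inside the annotated gene and overlap its exons. That of APOM lies before a start 3.48 kb inside the annotated gene. APOE was higher with CoCl2 (log2 0.75) and APOM with OD (log2 0.34), both under the fold threshold. Whether any of these letters bear on the changes was not tested.

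**Figure D3:**
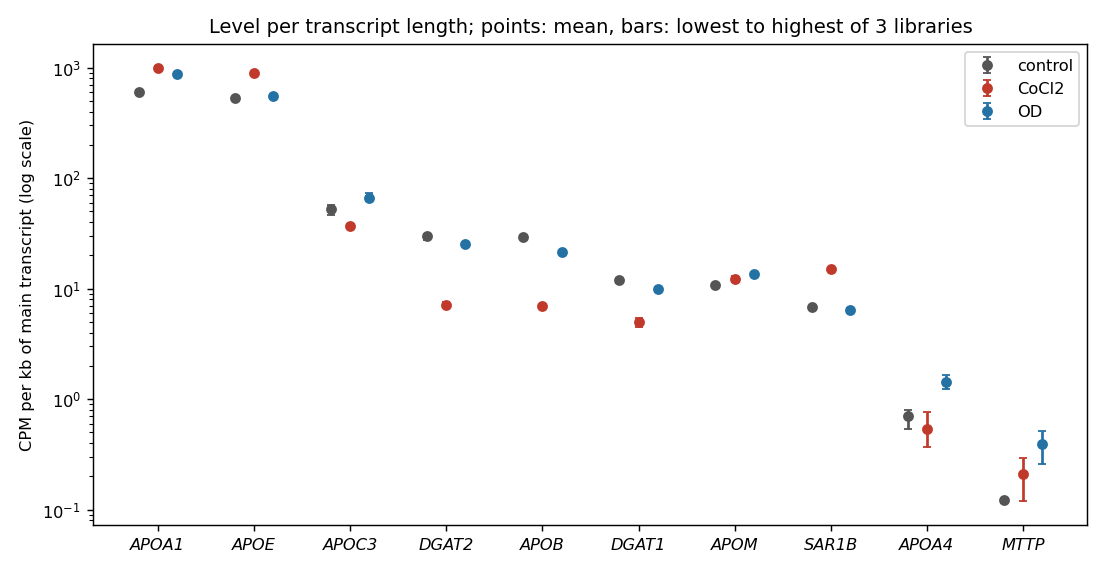
Mean level per kilobase of main transcript (logarithmic axis, CPM per kb) of the 10 genes in control, CoCl2 and OD, with bars from the lowest to the highest of 3 libraries. With CoCl2 APOA1 lies at 995 and APOE at 898, and APOB at 6.92 and DGAT2 at 7.07, while MTTP is lowest in each group.

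Per kilobase of main transcript, the 10 genes spanned more than 3 orders of magnitude. In control the order was APOA1 (609 CPM per kb), APOE (535), APOC3 (52.5), DGAT2 (30.1), APOB (29.5), DGAT1 (11.9), APOM (10.7), SAR1B (6.88), APOA4 (0.702) and MTTP (0.121). The libraries of DGAT2 (27.8 to 31.3) and APOB (28.0 to 30.5) overlapped, so this pair cannot be ordered. With CoCl2, SAR1B (15.0 CPM per kb) moved to the fourth place above APOM (12.2), and DGAT2 (7.07), APOB (6.92) and DGAT1 (5.04) followed. With OD the order of the first 5 was APOA1 (874), APOE (555), APOC3 (66.2), DGAT2 (25.4) and APOB (21.3). When all exonic bases were used as the length, APOB and DGAT1 stood above DGAT2 in control, so the middle of the order depends on the transcript chosen.

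A pair of clusters of apolipoprotein genes hold 4 of the 10 genes, and their neighbours were measured with them. On chromosome 11, APOA1 (chr11:116835751-116837622), APOC3 (chr11:116829706-116833072) and APOA4 (chr11:116820700-116823304) lie within 14.3 kb of start sites, with APOA5 45.2 kb away. APOA5, a triglyceride-lowering apolipoprotein, had 9 to 20 counts in control and 2 to 4 with OD, where it fell by 2.37 ± 0.45 on the log2 scale, and its CoCl2 value was -0.94 ± 0.39. It passed the expression filter in its control libraries alone, so that a fall was built into its being tested. The antisense gene APOA1-AS had 2 to 7 counts in control, 5 to 10 with OD and 21 to 32 with CoCl2, where it rose by 2.90 ± 0.38 on the log2 scale. It passed the expression filter in its CoCl2 libraries alone, so that a rise was built into its being tested. It shares 12.2% of its exonic bases with APOA1, and reads of the pair cannot be told apart if strand was not used. ZPR1 and BUD13, the next genes beyond APOA5, gave log2 fold changes of 0.52 and -0.17 with CoCl2. On the other side of APOA1 lies SIK3 (chr11:116843402-117098437), whose start site is 261 kb away. SIK3 rose with CoCl2 from 91.3 to 198 CPM (log2 1.12, and 0.61 with library size alone, under the fold threshold) and gave 0.56 with OD.

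On chromosome 19, APOE (chr19:44905791-44909393) is followed by APOC1, an apolipoprotein that hinders lipoprotein uptake. APOC1 was 37.6 CPM in control, 40.9 CPM with CoCl2 and 51.8 CPM with OD. Its log2 fold change was 0.13 ± 0.062 with CoCl2 (edgeR adjusted p = 0.0526) and 0.46 ± 0.059 with OD (edgeR adjusted p = 3.19e-10). TOMM40, before APOE, was lower with both compounds (-0.71 and -0.78). APOC2 and APOC4 were listed at 0 in all libraries, and 53.5% and 82.9% of their exonic bases are shared with the annotated read-through gene APOC4-APOC2.

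**Figure D4:**
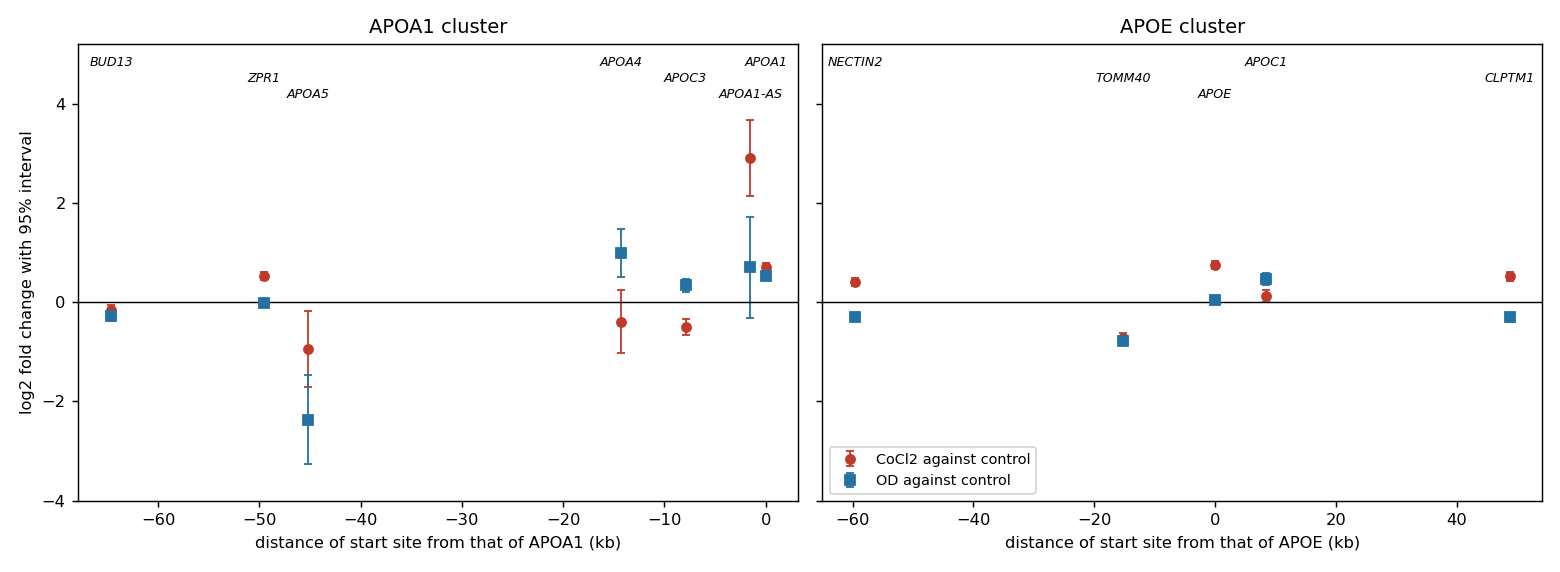
Log2 fold changes with 95% intervals of the tested genes of the APOA1 cluster (left) and the APOE cluster (right), by distance of the start site from that of APOA1 or APOE in kb. Red circles are CoCl2 against control and blue squares are OD against control. APOA1-AS lies highest with CoCl2, and APOA5 lowest with OD. APOA1-AS passed the expression filter in its CoCl2 libraries alone and APOA5 in its control libraries alone. Both directions were thus built into their being tested. SIK3, whose start site is far from that of APOA1, is not drawn.

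Some members outside the clusters share annotated start regions with other genes. For SAR1B and MTTP these are the starts of the annotated genes. The RefSeq starts whose windows are shown above lie 16.4 and 10.7 kb inside them. SEC24A, a COPII coat protein, begins beside SAR1B on the opposite strand and shares 3.60% of the exonic bases of SAR1B. It rose with CoCl2 from 90.2 to 223 CPM (log2 1.31 ± 0.046, edgeR adjusted p = 6.29e-36, and 0.80 with library size alone, which ends the call) and was higher with OD too (0.72 ± 0.046, edgeR adjusted p = 8.15e-22). TRMT10A, a tRNA methyltransferase next to MTTP, rose with CoCl2 from 4.28 to 24.3 CPM (log2 2.49 ± 0.11, edgeR adjusted p = 3.64e-31) and gave -0.43 with OD.

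Related genes were counted in 6 lists of 98 genes in all, of which 80 were tested. With CoCl2 19 were called higher and 18 lower, and with OD 10 higher and 2 lower, shares near the 19.9%, 23.4%, 9.09% and 4.16% of all genes. With library size alone the CoCl2 counts were 9 higher and 27 lower. Of the rises with CoCl2 named below, those of APOL1 (0.80), SOAT1 (0.65), CANX (0.50), VLDLR (0.52) and CEBPB (0.80) were then under the fold threshold, besides SAR1A and SEC24A. CANX (0.91) and VLDLR (0.92) were under it with upper-quartile factors too. The lists are described by their counts and medians, beside the medians of all genes given above.

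Of 15 other apolipoproteins 9 were tested, and their medians on the log2 scale were 0.43 (CoCl2) and 0.31 (OD). With library size alone the CoCl2 median was -0.074. APOL2 (2.27 ± 0.081), an intracellular apolipoprotein L, CLU (1.67 ± 0.043), the chaperone clusterin or apolipoprotein J, and APOL1 (1.30 ± 0.41, 4 to 7 counts in control) rose with CoCl2. With OD APOL6 (2.15 ± 0.076), APOL2 (1.87 ± 0.081) and APOL1 (1.78 ± 0.36) rose and APOA5 fell. APOL1 passed the expression filter in its CoCl2 and OD libraries alone, so that a rise was built into its being tested.

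Of 15 glycerolipid synthesis genes 12 were tested, and the median was -0.44 with CoCl2 and 0.37 with OD. With CoCl2 the acyltransferases MOGAT3 (-1.86 ± 0.18), AGPAT1 (-1.77 ± 0.095) and GPAM (-1.47 ± 0.068) were among 4 that fell, and GPAT3 (1.99 ± 0.067) and the phosphatidate phosphatase LPIN1 (1.65 ± 0.061) rose. With OD LPIN1 (1.54 ± 0.060), LPIN2 (1.09 ± 0.047) and AGPAT2 (1.06 ± 0.054) rose.

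Of 12 genes of lipidation in the endoplasmic reticulum and partners of APOB 11 were tested, with medians of 0.54 and 0.082. The chaperone HSPA5 (2.17 ± 0.044), the cholesterol acyltransferase SOAT1 (1.15 ± 0.057) and calnexin, CANX (1.01 ± 0.039), rose with CoCl2. SOAT2 (-2.55 ± 0.20), the enterocyte and hepatocyte form of that acyltransferase, fell, as did TM6SF2, which had 2 to 8 counts in control and at most 1 with CoCl2. TM6SF2, a membrane protein needed to lipidate the particle, rose with OD, to 15 to 22 counts, and passed the expression filter in its OD libraries alone, so that a rise was built into its being tested. P4HB, the protein disulfide isomerase that forms a complex with MTTP, was higher with both compounds, by 0.81 ± 0.039 with CoCl2 and 0.82 ± 0.039 with OD. With library size alone the P4HB values were 0.30 and 0.86, and the list median with CoCl2 was 0.031.

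COPII and export genes had a median of 0.76 with CoCl2 over 17 of 18 tested, which was 0.25 with library size alone. TFG (1.54 ± 0.042), SAR1A and SEC24A were among 4 that rose, and SEC31B (-2.34 ± 0.26), KLHL12 (-1.36 ± 0.067) and PREB (-1.33 ± 0.057), the exchange factor that activates SAR1 proteins, fell. With OD the median was 0.13, and edgeR and DESeq2 each called 0 of them. At an unadjusted edgeR p under 0.05, 10 of the 17 were higher and 3 lower. Of all 15944 genes tested, 5350 were higher and 5509 lower at that threshold.

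Of 18 genes of lipoprotein receptors, lipid export and plasma remodelling 13 were tested, with medians of -0.43 with CoCl2 and 0.35 with OD. The receptor VLDLR (1.02 ± 0.057) was among 3 that rose with CoCl2, and LCAT (-1.27 ± 0.13), the cholesterol transporter NPC1L1 (-1.24 ± 0.095) and the receptor SCARB1 (-1.22 ± 0.053) were among 5 that fell. With OD the receptor LRP1 (1.09 ± 0.045) was among 2 that rose.

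Of 20 transcription factors of apolipoprotein genes 18 were tested, with medians of -0.25 with CoCl2 and 0.26 with OD. NR1H4, the bile acid receptor FXR, had 0 counts in every control library and 91 to 119 with CoCl2, at least 40.4-fold higher against a floor of 3 counts per library, and 0 to 1 with OD. It passed the expression filter in its CoCl2 libraries alone, so that a rise was built into its being tested. NR5A2 (1.83 ± 0.086) and CEBPB (1.31 ± 0.066) rose with CoCl2, and PPARGC1B (-2.16 ± 0.090) and NR2F1 (-2.13 ± 0.46, 15 to 17 counts in control, with no CoCl2 library at the expression filter) were among 4 that fell. With OD CREB3L3 (1.47 ± 0.14) rose and FOXA1 (-1.48 ± 0.056) fell. HNF4A, a main activator of these genes in liver and intestine, was 309 CPM in control, and its log2 fold changes were 0.41 ± 0.041 with CoCl2, which flipped to -0.09 with library size alone, and 0.46 ± 0.040 with OD.

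**Figure D5:**
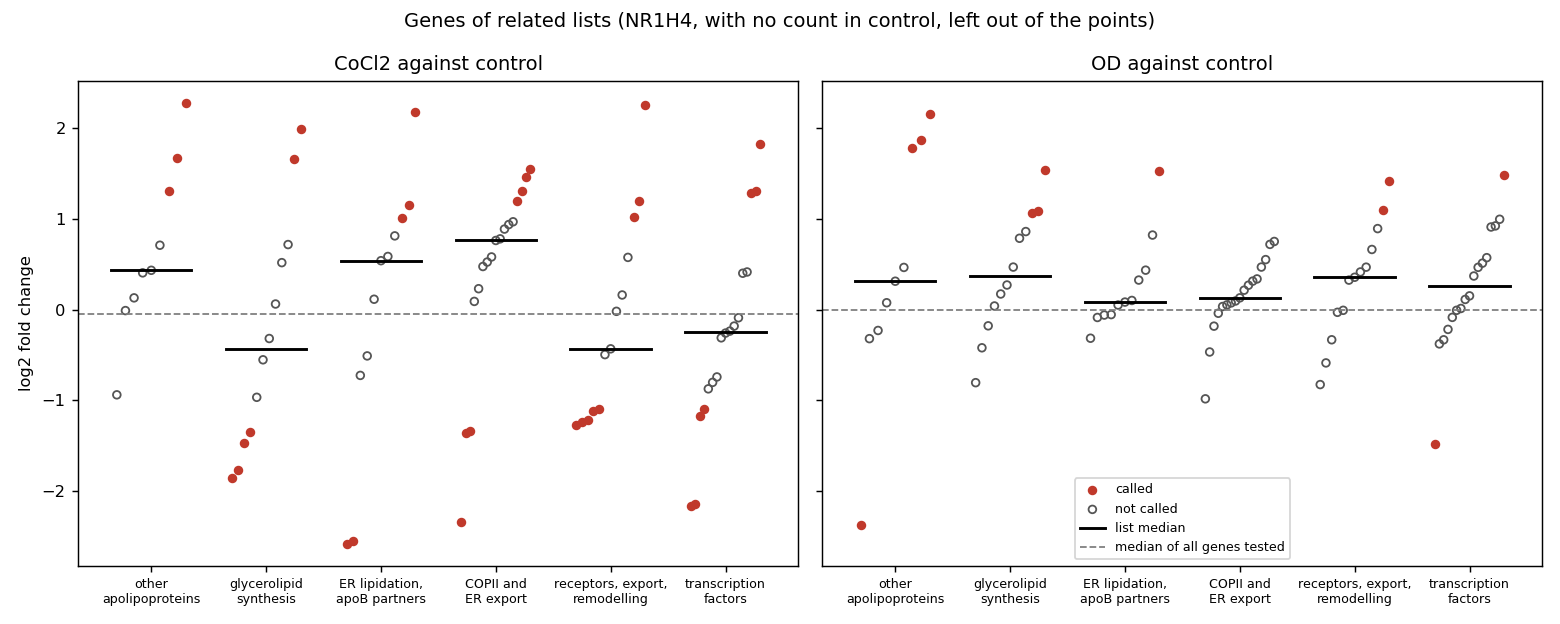
Log2 fold changes of the tested genes of the 6 related lists with CoCl2 (left) and OD (right) against control. Filled points passed both thresholds, black lines are list medians and the dashed line is the median of all genes tested, and NR1H4 is not drawn. Points spread from below -2 to above 2 with CoCl2, and 12 of the 80 tested genes were called with OD.

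Some genes outside the pathway followed the members closely over the 9 libraries. Likeness was measured as Pearson's r of log2 CPM among genes of at least 10 CPM (9029 or 9030 candidates), and the 9 libraries fall into 3 treatments, so that r reflects mostly the order of the treatments. The closest to APOB were DUT, PAXX and METTL1 (each r = 0.999), and to DGAT2 CREG2, ALAD and TBL2 (each 0.999). SAR1B was closest to YME1L1, SBDS and PSMA6 (each 0.999), and APOE to CXXC1 (1.00), KEAP1 (0.999) and CCNK (0.998). The weakest best match was that of MTTP, AC055811.4, at 0.933.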

How the data were processed

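Messenger RNA of 9 uCaco-2 cultures (3 control, 3 CoCl2, 3 OD) was sequenced from poly(A)-selected stranded libraries. The authors checked reads with FastQC 0.11.9, trimmed them with cutadapt 2.10 and mapped them on GRCh38 with STAR 2.7.5b. They deposited raw counts per gene symbol without normalization. The counting tool, its strand setting and its treatment of multimapping reads are not given in the sources used here, so overlapping and near-identical genes are uncertain.

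TMM factors, the expression filter (15944 of 60591 symbols kept) and quasi-likelihood fits with robust dispersions on all 9 libraries came from edgeR 4.0.16 in R 4.3.3, with Benjamini-Hochberg adjustment over all genes tested. The steps were tested on simulated data, in which a small set of better-counted genes was changed, equally up and down. That simulation does not test the scaling between groups when many genes change, nor genes counted as low as MTTP. A gene was called where its adjusted p was under 0.05 and its change exceeded 1 on the log2 scale in either direction, as the authors did. Positions, lengths and shared exonic bases came from GENCODE release 44. The authors made the counts with an earlier GENCODE release, in which the shared bases were not looked up. Depth was 15998136 to 24209427 counts per library, and floors of 3 counts cover counting error only. The named genes were the 10 members, up to 3 called rises and 3 falls per list and comparison, neighbours or antisense genes of members, and the 3 closest genes by correlation. The values of some genes of the lists are not reported here. The members and lists were chosen with earlier results of these data known. Alternatives were RLE and upper-quartile factors, library size alone, 2 other count filters, DESeq2 1.42.0, fits on 6 libraries, a replicate block, the adjusted p alone and each replicate left out.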

Additional observations from a re-analysis of the deposited data

How the results depend on the processing

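The calls of APOB, DGAT1 and DGAT2 with CoCl2 held under all 19 alternatives. Of the members' log2 fold changes under the alternatives that keep the fold threshold, 508 kept their direction and call, 21 passed the thresholds only there, 2 lost the call and 2 reversed. Both reversals came with library size alone: APOM with CoCl2 against control (-0.32) and APOA1 with CoCl2 against OD (-0.36). The 2 lost calls were those of SAR1B, so that library size alone left 0 members called higher in either CoCl2 comparison and 6 lower against OD. That setting gave 1833 higher and 5839 lower genes for CoCl2 against control, beside 3167 and 3724, and 1351 higher and 6026 lower against OD, beside 2790 and 3790. Of the related genes it left 9 called higher with CoCl2 and 3 against OD.

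With OD, RLE, upper-quartile and library-size scaling, DESeq2 on 9 or 6 libraries and edgeR on 6 libraries each called 2 members higher, APOA4 beside MTTP. A minimum of 10 counts in every library called 0, because MTTP was then not tested, and gave 803 higher and 331 lower genes with OD and 1827 higher for CoCl2 against OD. Of the related genes 1 was then called lower with OD, as with edgeR on 6 libraries. Leaving out 1 library gave 1 to 2 members called higher with OD (2 without control replicate 1 or 2, or OD replicate 1 or 2) and 1 to 2 with CoCl2, where MTTP joined without CoCl2 replicate 2 (1.10).

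With the adjusted p alone, 4 members were higher with CoCl2 (6441 genes higher and 6819 lower), 5 higher and 3 lower with OD (5156 and 5310), and 3 higher and 6 lower for CoCl2 against OD (6416 and 6895). Of the related genes 41 were then higher and 30 lower with CoCl2, 43 and 17 with OD, and 37 higher for CoCl2 against OD.

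The replicate numbers did not pair the samples, as deviations of same-numbered libraries correlated at -0.0049 to 0.038. With the replicate number as a block, 3174 genes were higher and 3727 lower with CoCl2, 1453 and 662 with OD, and 2792 and 3776 for CoCl2 against OD. Depth limits APOA4 and MTTP, whose standard errors were 0.24 to 0.38, against 0.039 to 0.044 for APOB and APOE.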
